A study of Mus musculus with 8 samples.

Results

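The 10 genes described here encode the enzymes that make dopamine (Th, Ddc, Gch1), the carriers that store and recover it (Slc18a2, Slc6a3) and its receptors (Drd1 to Drd5). They were taken by gene symbol from tables of 24421 genes, and all 10 symbols were found. The tables come from 8 libraries of RNA recovered by translating ribosome affinity purification (TRAP), in which ribosomes tagged in chosen cells are pulled down with the RNA they carry, from dissected mouse hypothalamus and medial amygdala. The 4 KO libraries came from C57BL/6 mice that carried Otp-Cre, Cic alleles flanked by loxP sites on both copies (Cicflox/flox) and ROSAfsTRAP, and the 4 Control libraries from C57BL/6 mice with Otp-Cre and ROSAfsTRAP and no floxed Cic. Both groups therefore share the Cre driver and the ribosome tag, the tag is limited to cells with an Otp history, and the sources used here do not state age, sex or the number of mice per library. The comparison asks whether loss of Cic, which encodes the transcriptional repressor Capicua, in the Otp lineage alters ribosome-bound RNA, here that of the dopamine system.

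Dopamine is made from tyrosine by tyrosine hydroxylase (Th), the rate-limiting step, followed by aromatic amino acid decarboxylase (Ddc). Tyrosine hydroxylase needs the cofactor tetrahydrobiopterin, whose synthesis starts with GTP cyclohydrolase (Gch1). The vesicular monoamine transporter VMAT2 (Slc18a2) loads dopamine into vesicles and the dopamine transporter (Slc6a3) takes it back up from outside the cell. Drd1 and Drd5 encode receptors that stimulate adenylyl cyclase, and Drd2, Drd3 and Drd4 encode receptors that inhibit it. In the hypothalamus, dopamine neurons of the arcuate nucleus restrain prolactin release from the pituitary, and the transcription factor Otp takes part in the development of a group of diencephalic dopamine neurons in mice and zebrafish.

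The KO libraries held 33223878 to 49587839 gene counts and the Control libraries 38171319 to 57300362 (exact two-sided permutation p = 0.514, n = 4 each), so that 1 read count of a gene equalled between 0.0171 and 0.0308 CPM (read counts scaled to a common library size, with TMM factors). Cic, the targeted gene, averaged 44.0 ± 11.04 CPM in KO and 94.2 ± 14.6 CPM in Control (SD, n = 4 each). Otp, the gene that defines the lineage, was present at 4.96 ± 2.54 CPM in KO and 3.45 ± 1.14 CPM in Control. No input RNA was used here, so enrichment of any gene in the tagged cells cannot be read from these values, and in such samples fewer cells of a type and less RNA per cell cannot be told apart. The library kit keeps no record of strand, so antisense neighbours of a gene cannot be told from it by their reads.

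All 10 genes had counts in both groups, and 9 passed the filter on low counts, which removed Drd4. None of the 9 differed between KO and Control in edgeR's quasi-likelihood test with Benjamini-Hochberg adjustment over the 15438 genes tested. At this threshold 0.259% of all genes were called, 0.194% higher and 0.0648% lower in KO. Also 0 of the 9 had an unadjusted p under 0.05, where the share of all genes was 10.6%, 0 of the 9 passed in DESeq2, which gave Drd3 no adjusted p and where the share was 1.30%, and 0 of the 9 had KO and Control libraries that did not overlap, where the share was 5.93%. The log2 fold changes of KO over Control ran from -0.70 for Slc6a3 to 0.71 for Drd3, with 4 above 0 and 5 below, a median of -0.01, and a median of 0.02 over all genes.

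**Figure D1:**
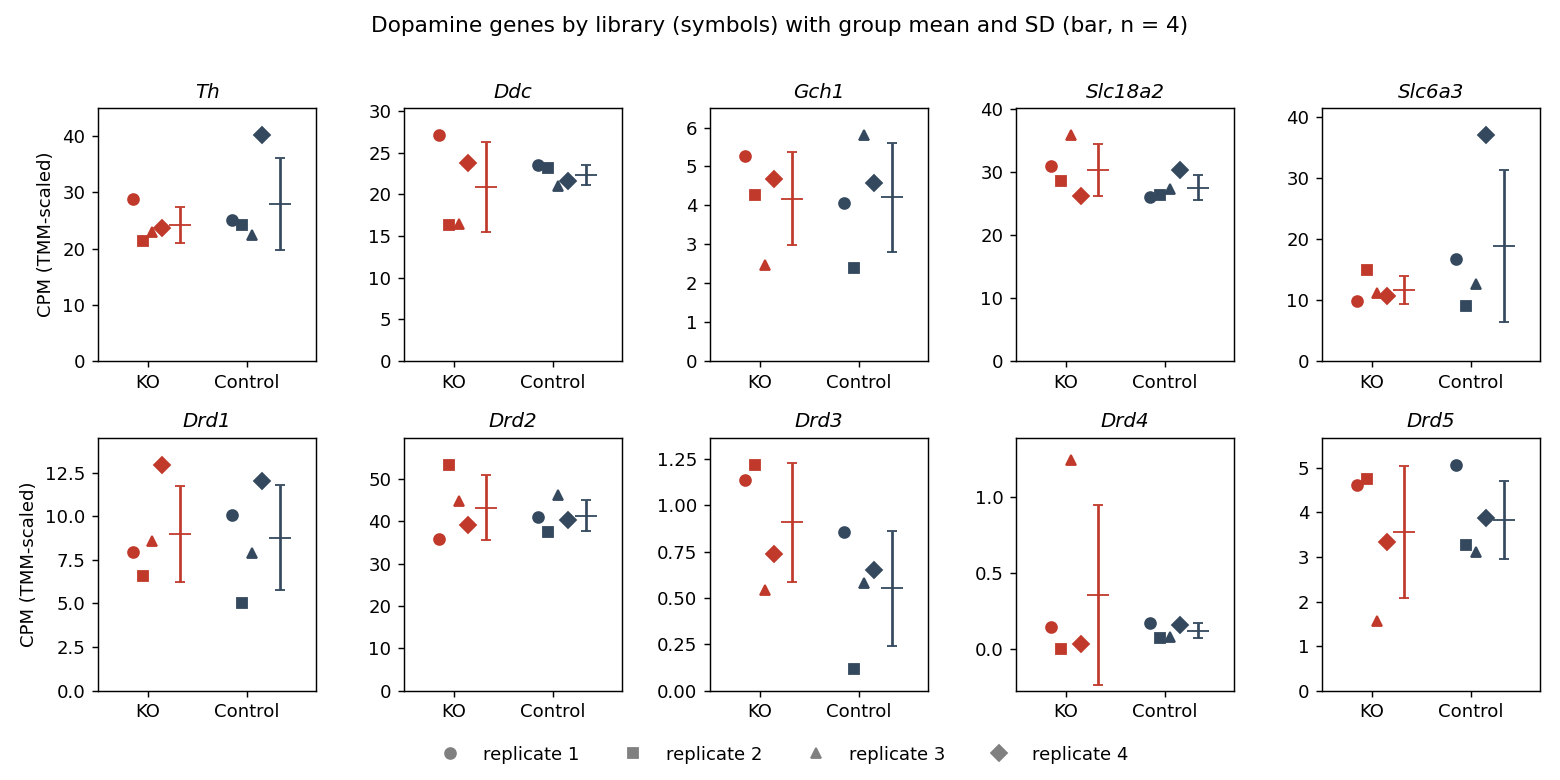
CPM of each dopamine gene in every library, KO left of Control, with a vertical scale for each gene; symbols mark replicates and the bar gives the group mean and SD (n = 4). Control replicate 4 stands above the other libraries for Th (40.1 CPM) and Slc6a3 (37.0 CPM), and KO replicate 3 above the others for Drd4 (1.24 CPM).

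To show the start sites of the genes that carry the contrasts below, the 250 bases before the RefSeq start of Th, Slc6a3 and Drd2 are printed 5′ to 3′ on the strand of each gene (GRCm38.p6). Th is the rate-limiting enzyme gene, Slc6a3 the member with the lowest fold change and Drd2 the most abundant member.
Th, chr7:142899996-142900245, minus strand, with a full cyclic AMP response element (CRE, letters TGACGTCA) in capitals: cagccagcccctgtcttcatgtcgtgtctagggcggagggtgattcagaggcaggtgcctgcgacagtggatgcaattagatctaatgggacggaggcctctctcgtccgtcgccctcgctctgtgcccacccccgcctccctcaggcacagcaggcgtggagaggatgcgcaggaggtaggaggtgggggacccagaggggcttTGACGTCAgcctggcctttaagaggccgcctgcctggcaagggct
Slc6a3, chr13:73536497-73536746, plus strand, with GC boxes (GGGCGG on either strand) in capitals: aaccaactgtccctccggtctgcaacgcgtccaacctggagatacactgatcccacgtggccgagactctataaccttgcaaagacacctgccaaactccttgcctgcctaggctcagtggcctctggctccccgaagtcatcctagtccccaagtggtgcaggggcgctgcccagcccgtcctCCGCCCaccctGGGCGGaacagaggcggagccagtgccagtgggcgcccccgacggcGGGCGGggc
Drd2, chr9:49340153-49340402, plus strand, with GC boxes in capitals: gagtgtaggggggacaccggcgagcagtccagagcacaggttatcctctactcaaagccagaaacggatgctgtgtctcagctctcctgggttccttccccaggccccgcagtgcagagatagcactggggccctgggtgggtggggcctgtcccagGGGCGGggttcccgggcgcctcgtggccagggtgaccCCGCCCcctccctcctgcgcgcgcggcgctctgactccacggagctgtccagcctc
The CRE of Th, an element through which cyclic AMP signalling acts on this gene, lay 45 to 38 bases before the start. These letters occurred in 1 of the 12 windows of the 10 genes, that of Th, against 1.55% of 32851 windows of all genes. GC boxes, which bind Sp-family factors, occurred in 8 of the 12 windows, which belonged to 8 of the 10 genes, against 32.7% of all windows. The letters TGAATGAA, TGAATGGA, TCAATGAA and TCAATGGA, the octamers bound by Capicua, were searched on both strands and occurred in 0 of the 12 windows of the 10 genes, against 3.19% of all windows. The letters AAAGGTCA, the element bound by NR4A2, occurred in 1 window, of Ddc, against 1.34% of all windows. None of these motifs is contained in another, and a match or its absence describes only these windows.

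Among the synthesis genes, Th was measured at 28.8, 21.3, 22.9 and 23.6 CPM in KO libraries 1 to 4, against 25.1, 24.1, 22.4 and 40.1 CPM in Control libraries 1 to 4. The groups overlapped, and a single Control library, replicate 4, lay above all 7 others. The means were 24.2 ± 3.24 CPM in KO and 27.9 ± 8.18 CPM in Control (n = 4 each), with a log2 fold change of -0.21 (SE 0.21, 95% interval from limma -0.53 to 0.18, edgeR adjusted p = 0.742). Without Control replicate 4 the Control mean was 23.9 ± 1.32 CPM (n = 3) and the log2 fold change 0.018 (edgeR adjusted p = 0.990), so that library sets the sign. Th (ENSMUSG00000000214.11) occupies positions 142892752 to 142931128 of chromosome 7, minus strand of GRCm38, 118 Mb from Cic on the same chromosome. The RefSeq start used for the window printed above lies inside this GENCODE interval, so the annotations place the start of Th differently.

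Ddc, the decarboxylase that acts after tyrosine hydroxylase and also serves serotonin neurons, was measured at 27.1, 16.3, 16.5 and 23.8 CPM in KO, against 23.5, 23.1, 21.0 and 21.6 CPM in Control. KO libraries 2 and 3 lay below every Control library and KO libraries 1 and 4 above them all. The spread was accordingly wider in KO, with a coefficient of variation of 25.8% in KO and 5.33% in Control, while the means were 20.9 ± 5.39 and 22.3 ± 1.19 CPM (log2 fold change -0.09, SE 0.19, 95% interval -0.47 to 0.22, edgeR adjusted p = 0.902). Ddc (ENSMUSG00000020182.16, chromosome 11 from 11814101 to 11898144, minus strand) overlaps the antisense gene 1700042O10Rik.

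Gch1, which makes the first intermediate of the cofactor, was measured at 5.26, 4.27, 2.47 and 4.68 CPM in KO, against 4.06, 2.40, 5.80 and 4.57 CPM in Control. Each group held a single low library, KO replicate 3 and Control replicate 2, and the rest overlapped. The means of 4.17 ± 1.20 and 4.20 ± 1.41 CPM gave a log2 fold change of -0.01 (SE 0.36, 95% interval -0.63 to 0.64, edgeR adjusted p = 0.994). The gene (ENSMUSG00000037580.10, chromosome 14 from 47153895 to 47189413, minus strand) spans the processed pseudogenes Gm49134 and Gm18811. The number of reads limits this value more than those of Th and Ddc, since Gch1 had 100 to 255 counts per library.

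Of the transporter genes, Slc18a2 was measured at 30.9, 28.5, 35.8 and 26.2 CPM in KO, against 26.0, 26.4, 27.3 and 30.4 CPM in Control. KO replicate 3 was the highest of the 8 libraries, and the groups overlapped. The means were 30.3 ± 4.10 CPM in KO and 27.5 ± 1.97 CPM in Control, with a log2 fold change of 0.14 (SE 0.11, 95% interval -0.15 to 0.42, edgeR adjusted p = 0.782), and of 0.053 without KO replicate 3 (edgeR adjusted p = 0.932). Slc18a2 also serves serotonin, noradrenaline and histamine neurons, so its level is not that of dopamine neurons alone. It occupies positions 59260896 to 59296012 of chromosome 19, plus strand (ENSMUSG00000025094.8) and overlaps the antisense gene Gm29261.

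Slc6a3, the gene of the dopamine transporter, was measured at 9.81, 14.95, 11.3 and 10.6 CPM in KO, against 16.7, 9.08, 12.7 and 37.0 CPM in Control. Control replicate 4 exceeded the highest other library 2.22-fold, and Control replicate 2 was the lowest of all 8. With means of 11.7 ± 2.27 CPM in KO and 18.9 ± 12.5 CPM in Control, Slc6a3 had the lowest fold change and the smallest edgeR p of the dopamine genes, though not the smallest exact permutation p (log2 fold change -0.70, SE 0.45, 95% interval -1.24 to 0.23, edgeR p = 0.0886 and adjusted p = 0.558, exact permutation p = 0.314). Without Control replicate 4 the Control mean was 12.8 ± 3.82 CPM (n = 3) and the log2 fold change -0.14 (edgeR adjusted p = 0.926). Slc6a3 (ENSMUSG00000021609.6) occupies positions 73536747 to 73578672 of chromosome 13, plus strand.

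**Figure D2:**
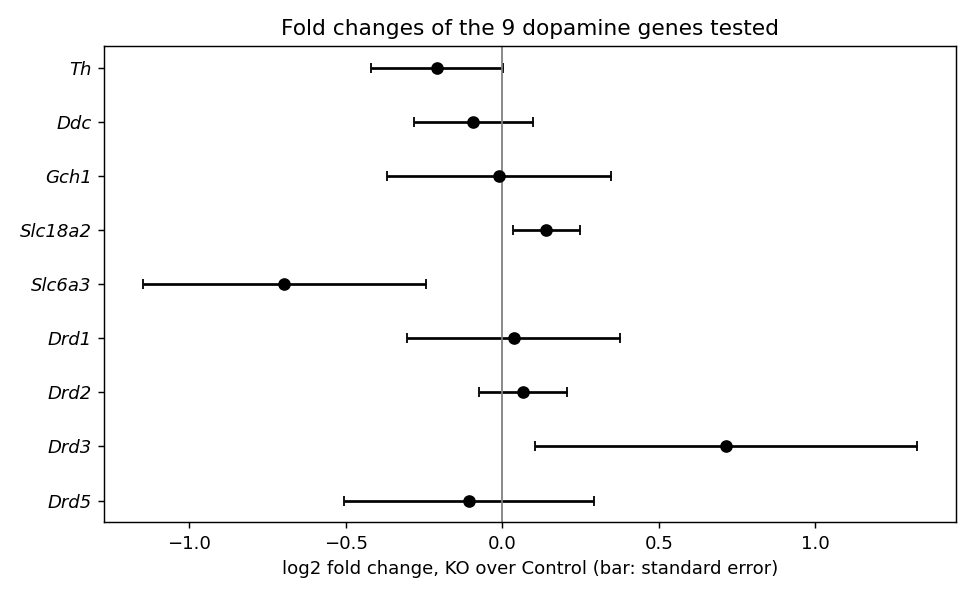
Log2 fold change of KO over Control from edgeR for the 9 dopamine genes tested (points). Bars give the standard error of the difference of group means of log2 CPM, a separate estimate drawn around the edgeR point. Slc6a3 at -0.70 and Drd3 at 0.71 lie farthest from 0 and have the longest bars, with SE 0.45 and 0.61.

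Among the receptor genes of the cyclase-stimulating class, Drd1 was measured at 7.98, 6.54, 8.56 and 12.9 CPM in KO, against 10.05, 5.01, 7.92 and 12.04 CPM in Control. The groups overlapped, with Control replicate 2 below every KO library, KO replicate 4 above every Control library, and replicate 4 the highest in each group. The means of 9.01 ± 2.76 and 8.75 ± 3.01 CPM gave a log2 fold change of 0.04 (SE 0.34, 95% interval -0.47 to 0.60, edgeR adjusted p = 0.979). Drd1 (ENSMUSG00000021478.6) occupies positions 54051183 to 54055705 of chromosome 13, minus strand. It is abundant in striatal projection neurons, whose summed markers, a list that holds Drd1 itself, were highest of all libraries in KO replicate 4 at 938 CPM but stood at 839.6 CPM in Control replicate 4, below Control replicates 1 and 3. Single markers of that list differed, since Adora2a was highest in Control replicate 4 at 7.25 CPM while Tac1 at 113.3 CPM, Pdyn at 30.9 CPM and Isl1 at 9.49 CPM were lowest of all libraries there (named after their values were seen). The part of striatal RNA in the Drd1 level was not tested.

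Drd5, the other receptor of this class, was measured at 4.62, 4.75, 1.56 and 3.33 CPM in KO, against 5.07, 3.27, 3.12 and 3.87 CPM in Control. KO replicate 3 was the lowest library, with 63 counts, and the rest overlapped. The means were 3.56 ± 1.48 CPM in KO and 3.83 ± 0.884 CPM in Control (log2 fold change -0.11, SE 0.40, 95% interval -0.89 to 0.49, edgeR adjusted p = 0.945). Drd5 (ENSMUSG00000039358.3, chromosome 5 from 38319367 to 38322518, plus strand) overlaps the antisense gene Gm26560.

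Of the cyclase-inhibiting class, Drd2 was measured at 35.8, 53.3, 44.8 and 39.1 CPM in KO, against 40.9, 37.4, 46.2 and 40.4 CPM in Control. The lowest and the highest library were both KO, and the Control libraries lay within the KO range. Drd2, which encodes both the autoreceptor of dopamine neurons and the receptor of many of their targets, averaged 43.2 ± 7.67 CPM in KO and 41.2 ± 3.67 CPM in Control. Its log2 fold change of 0.07 had the narrowest interval among the receptors (SE 0.14, 95% interval -0.23 to 0.34, edgeR adjusted p = 0.911), which corresponds to 0.852-fold to 1.27-fold. Drd2 (ENSMUSG00000032259.8) occupies positions 49340627 to 49408177 of chromosome 9, plus strand. The RefSeq start used for its printed window lies before this GENCODE start.

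Drd3, a receptor known mainly from the ventral striatum and islands of Calleja, was measured at 1.13, 1.22, 0.544 and 0.739 CPM in KO, against 0.856, 0.118, 0.582 and 0.649 CPM in Control. KO replicates 1 and 2 lay above every Control library, KO replicates 3 and 4 lay within the Control range, and Control replicate 2, with 5 counts, lay far below the rest. The means were 0.909 ± 0.320 CPM in KO and 0.551 ± 0.312 CPM in Control, with a log2 fold change of 0.71 (SE 0.61, 95% interval -0.36 to 2.07, edgeR adjusted p = 0.752), and 0.38 without Control replicate 2 (edgeR adjusted p = 0.939). With 5 to 55 counts per library, a change of several-fold lies within that interval. Drd3 (ENSMUSG00000022705.5) occupies positions 43754026 to 43822932 of chromosome 16, plus strand, and overlaps the microRNA gene Gm25996 on the same strand.

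Drd4, a receptor known mainly from the retina and frontal cortex, had 7, 0, 50 and 1 counts in KO, against 10, 3, 3 and 7 counts in Control. KO replicate 3 thus held 50 of the 58 KO counts, and the 0 counts of KO replicate 2 allow a level of up to 0.0689 CPM. The means were 0.353 ± 0.593 CPM in KO and 0.119 ± 0.0518 CPM in Control (exact permutation p = 0.914). Drd4 did not enter the fit with the filter, and in a fit without it the log2 fold change was 1.52 (edgeR adjusted p = 0.710), carried by that library. Drd4 (ENSMUSG00000025496.5) occupies positions 141292006 to 141296464 of chromosome 7, plus strand, 116 Mb from Cic.

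Levels of different genes were compared per kilobase of exon. In KO, Drd2 stood highest at 17.0 ± 3.01 CPM per kb, followed by Th at 10.2 ± 1.37, Slc18a2 at 5.81 ± 0.785, Ddc at 4.69 ± 1.21, Slc6a3 at 3.37 ± 0.657 and Drd1 at 2.48 ± 0.759 CPM per kb. Drd5 at 1.13 ± 0.471, Gch1 at 0.667 ± 0.192, Drd3 at 0.531 ± 0.187 and Drd4 at 0.104 ± 0.175 CPM per kb came last. In KO the ranges of neighbours did not overlap between Drd2 and Th, between Th and Slc18a2 and between Drd1 and Drd5, and overlapped between all other neighbours. In Control, Drd2 at 16.2 ± 1.44 and Th at 11.8 ± 3.46 CPM per kb came first, and then Slc6a3 at 5.46 ± 3.62, Slc18a2 at 5.27 ± 0.377, Ddc at 4.998 ± 0.266, Drd1 at 2.41 ± 0.830, Drd5 at 1.22 ± 0.280, Gch1 at 0.673 ± 0.225, Drd3 at 0.322 ± 0.182 and Drd4 at 0.0353 ± 0.0153 CPM per kb. The order differed from KO only in the place of Slc6a3, whose Control range of 2.63 to 10.7 CPM per kb covered both Slc18a2 and Ddc. That place rests on Control replicate 4, without which Slc6a3 averaged 3.71 ± 1.11 CPM per kb in Control (n = 3), below Ddc at 5.05 ± 0.300, and the order was that of KO. In Control, neighbours did not overlap between Ddc and Drd1, between Drd5 and Gch1 and between Drd3 and Drd4, and overlapped elsewhere.

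**Figure D3:**
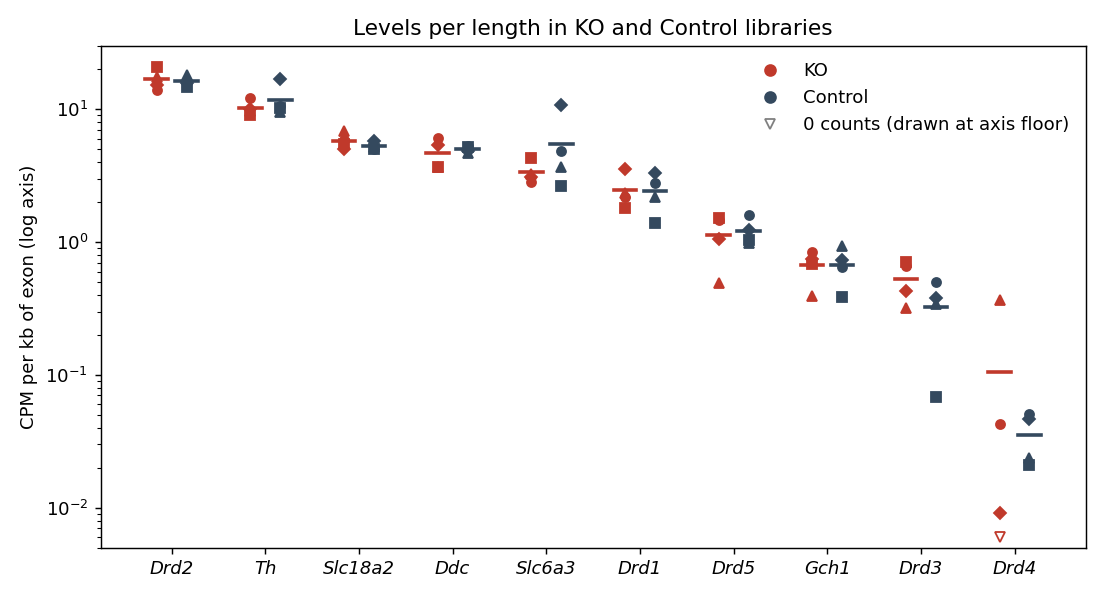
CPM per kilobase of exon (log axis) for each dopamine gene in KO (left of each pair) and Control libraries; symbols mark libraries as in the plot of CPM by library, lines give group means, and the open triangle is the KO library with 0 counts of Drd4. Drd2 and Th head both groups and Drd4 closes both.

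Th and Slc6a3 were both highest in Control replicate 4, where they exceeded the mean of the other 3 Control libraries 1.68-fold and 2.89-fold. Ddc stood there at 0.959 times, Slc18a2 at 1.14 times, Gch1 at 1.118 times and Drd1 at 1.57 times that mean, each below the highest other library. The ratio of Ddc to Th counts was 0.539 in Control replicate 4, against 0.935 to 0.960 in the other Control libraries, and averaged 0.858 ± 0.138 over KO and 0.843 ± 0.203 over Control libraries (exact permutation p = 0.857). The ratio of Slc6a3 to Th, chosen after these values were seen, averaged 0.496 ± 0.151 over KO and 0.633 ± 0.228 over Control libraries (exact permutation p = 0.343, n = 4 each), and that of Slc6a3 to Slc18a2, chosen likewise, 0.391 ± 0.0986 and 0.668 ± 0.388 (exact permutation p = 0.200). Adjusted over the 4 ratios formed, these p-values were 0.686 or more. Some transcription factors known from midbrain dopamine neurons, also singled out after their values were seen, were high in the same library, and others of the same list were not. Pitx3, a transcription factor of those neurons, had 1, 2, 0 and 0 counts in KO and 4, 0, 3 and 18 counts in Control. En1, an engrailed transcription factor of midbrain and hindbrain, was measured at 0.763, 0.390, 0.495 and 0.308 CPM in KO, against 0.873, 0.870, 0.821 and 2.82 CPM in Control. The En1 values of the groups did not overlap, and its log2 fold change of -1.45 did not pass (SE 0.49, edgeR adjusted p = 0.373). Its relative En2 was highest in Control replicate 4 at 1.10 CPM, against 0.154 to 0.767 CPM over KO libraries and 0.185 to 0.650 CPM in the other Control libraries. Lmx1a, another factor of midbrain dopamine neurons that also marks posterior hypothalamus, was not high there, with 5.02 to 16.4 CPM among KO libraries and 7.03 CPM in Control replicate 4, the lowest of the Control libraries. Foxa1 at 5.53 CPM was likewise the lowest of the Control libraries in replicate 4, and Lmx1b at 1.37 CPM, Foxa2 at 0.806 CPM and Nr4a2 at 39.0 CPM were below at least 1 other Control library. The part of midbrain RNA in the Th and Slc6a3 levels was not tested.

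**Figure D4:**
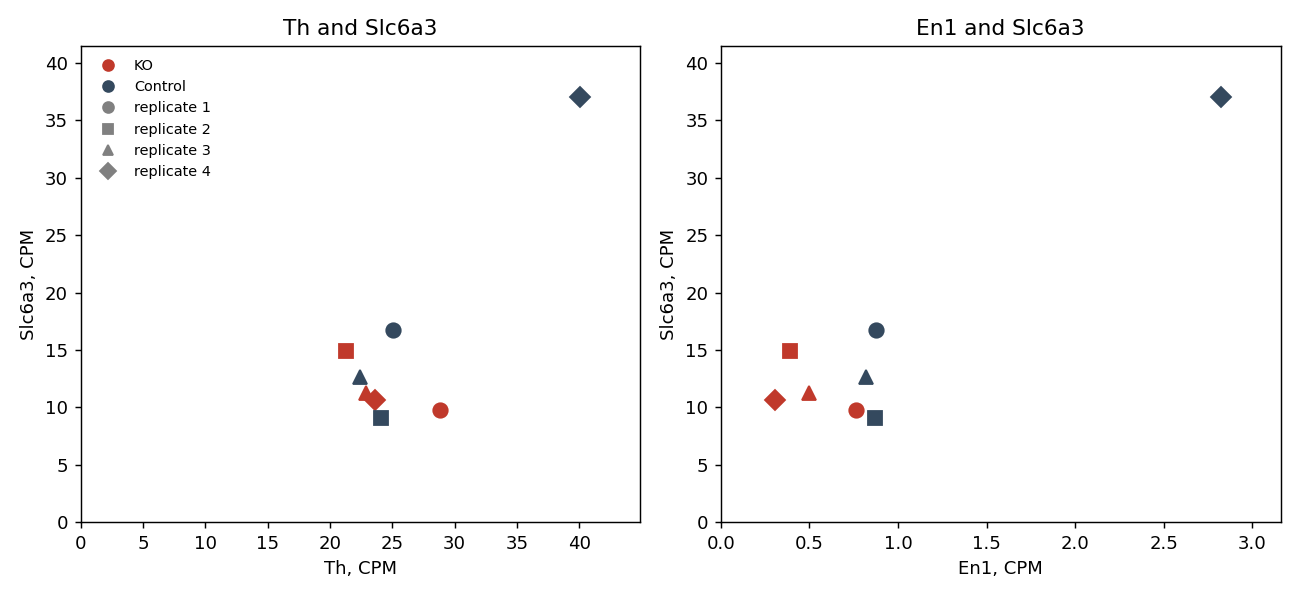
Slc6a3 against Th (left) and against En1 (right), in CPM, with 1 point for each of the 8 libraries; colour gives the group and symbol the replicate. Control replicate 4 stands apart in both panels, at 40.1 CPM of Th, 37.0 CPM of Slc6a3 and 2.82 CPM of En1, and the other 7 libraries lie between 21.3 and 28.8 CPM of Th and between 9.08 and 16.7 CPM of Slc6a3.

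Over the 8 libraries, the log2 CPM of the 6 members with a mean of at least 5 CPM were compared in 15 pairs. Th and Slc6a3 had Pearson's r = 0.72 (exact permutation p = 0.0992, adjusted over the 15 pairs 0.682) and Spearman's rho = 0.07 (exact permutation p = 0.882, adjusted 0.977). Without KO replicate 1 and Control replicate 4, the libraries farthest from the median of Th, r was -0.11, and without Control replicate 4 alone it was -0.37, so the relation rests on that library. Ddc and Drd2 ran opposite to each other, with r = -0.87 (exact permutation p = 0.00414, adjusted 0.0621) and rho = -0.86 (exact permutation p = 0.0107, adjusted 0.161), and r = -0.83 without KO replicates 2 and 3, the farthest from the median of Ddc. It was -0.87 for deviations from the group means, and it did not pass adjustment over the pairs. Th and Drd2 had r = -0.47 (exact permutation p = 0.246, adjusted 0.682) and rho = -0.74 (exact permutation p = 0.0458, adjusted 0.344). Their r was -0.84 without Control replicate 4. Th and Ddc, which act in 1 pathway, had r = 0.38 (exact permutation p = 0.364, adjusted 0.780) and rho = 0.67 (exact permutation p = 0.0831, adjusted 0.415). Their r was 0.81 without Control replicate 4 and 0.78 without that library and KO replicate 1. Drd1 and Drd2 had r = -0.16 (exact permutation p = 0.702, adjusted 0.868) and rho = -0.17 (exact permutation p = 0.703, adjusted 0.977). The ratio of Drd1 to Drd2 counts lay between 0.123 and 0.331 in KO libraries and between 0.134 and 0.298 in Control libraries (means 0.217 ± 0.0868 and 0.212 ± 0.0737, exact permutation p = 0.971).

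As a description of likeness over the 8 libraries among 10985 genes of at least 5 CPM, the highest Pearson's r with Th were those of Psmd11 (0.93), Atp6v1c1 (0.93) and Med27 (0.92), and with Slc6a3 those of Atpaf1 (0.97), Rtn4 (0.95) and Lmo7 (0.94). For Ddc they were Prpf3 (0.97), Cntrob (0.96) and Hdac8 (0.96), and for Slc18a2 Rbfox1 (0.97), Nova2 (0.97) and Phf2 (0.96). For Drd1 they were Slc25a5 (0.98), Zic2 (0.98) and Fbl (0.95), and for Drd2 Vcl (0.98), Atrip (0.95) and Ermp1 (0.95). No dopamine gene was among the 3 nearest of another.

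In the wider pathway no gene passed in edgeR and 1, Onecut3, passed in DESeq2; over all genes tested 53.8% had a positive fold change and the median was 0.02. An unadjusted edgeR p under 0.05 was found for 0 of 7 cofactor genes, 1 of 8 breakdown genes, 2 of 15 partners of tyrosine hydroxylase, 5 of 21 transcription factors and 6 of 34 signalling genes, against 10.6% of all genes. Of 7 genes that make, recycle or regulate tetrahydrobiopterin, 0 rose and 0 fell, with 5 above 0 and a median log2 fold change of 0.07. Qdpr, which regenerates the cofactor, averaged 130.9 ± 22.8 CPM in KO and 144.6 ± 16.6 CPM in Control (edgeR adjusted p = 0.772, log2 fold change -0.14). Of 10 genes of dopamine breakdown and conversion 8 were tested, 0 rose and 0 fell, and the median was 0.06. Aldh1a1, an aldehyde dehydrogenase of some dopamine neurons and of other cells, averaged 175.9 ± 23.6 CPM in KO and 223.0 ± 20.5 CPM in Control (edgeR adjusted p = 0.311, log2 fold change -0.34 with SE 0.12), and Maoa, monoamine oxidase A, 33.1 ± 3.82 and 30.7 ± 1.95 CPM (0.11, edgeR adjusted p = 0.839). Of 15 kinases, phosphatases and binding partners of tyrosine hydroxylase 12 were above 0, with a median of 0.10 and 0 called in either direction. The 14-3-3 genes Ywhag (log2 fold change 0.29, adjusted p = 0.346 in edgeR) and Ywhab (0.25, adjusted p = 0.463 in edgeR) had the smallest p.

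Of 22 transcription factors of dopamine neurons 21 were tested, 14 were above 0, the median was 0.13, and 0 passed in either direction. Onecut3 averaged 10.8 ± 2.65 CPM in KO and 5.79 ± 2.02 CPM in Control (edgeR adjusted p = 0.163, called by DESeq2, edgeR log2 fold change 0.90 with SE 0.31) and Onecut2 20.9 ± 2.92 and 14.4 ± 2.71 CPM (0.53, SE 0.16, edgeR adjusted p = 0.219). Nr4a2 (Nurr1), which drives Th transcription in midbrain neurons, averaged 40.7 ± 3.10 CPM in KO and 37.2 ± 8.08 CPM in Control. Of 36 symbols fixed for dopamine receptor signalling 34 were in the tables and tested, with 16 above 0, a median of -0.01 and 0 called. Adcy1, a calcium-activated adenylyl cyclase, averaged 109.2 ± 21.4 CPM in KO and 149.8 ± 15.98 CPM in Control (edgeR adjusted p = 0.208, log2 fold change -0.46 with SE 0.16), and Kcnj9, a subunit of the potassium channels that D2-class receptors open, 60.5 ± 8.25 and 79.1 ± 4.62 CPM (-0.39, SE 0.11, edgeR adjusted p = 0.225).

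**Figure D5:**
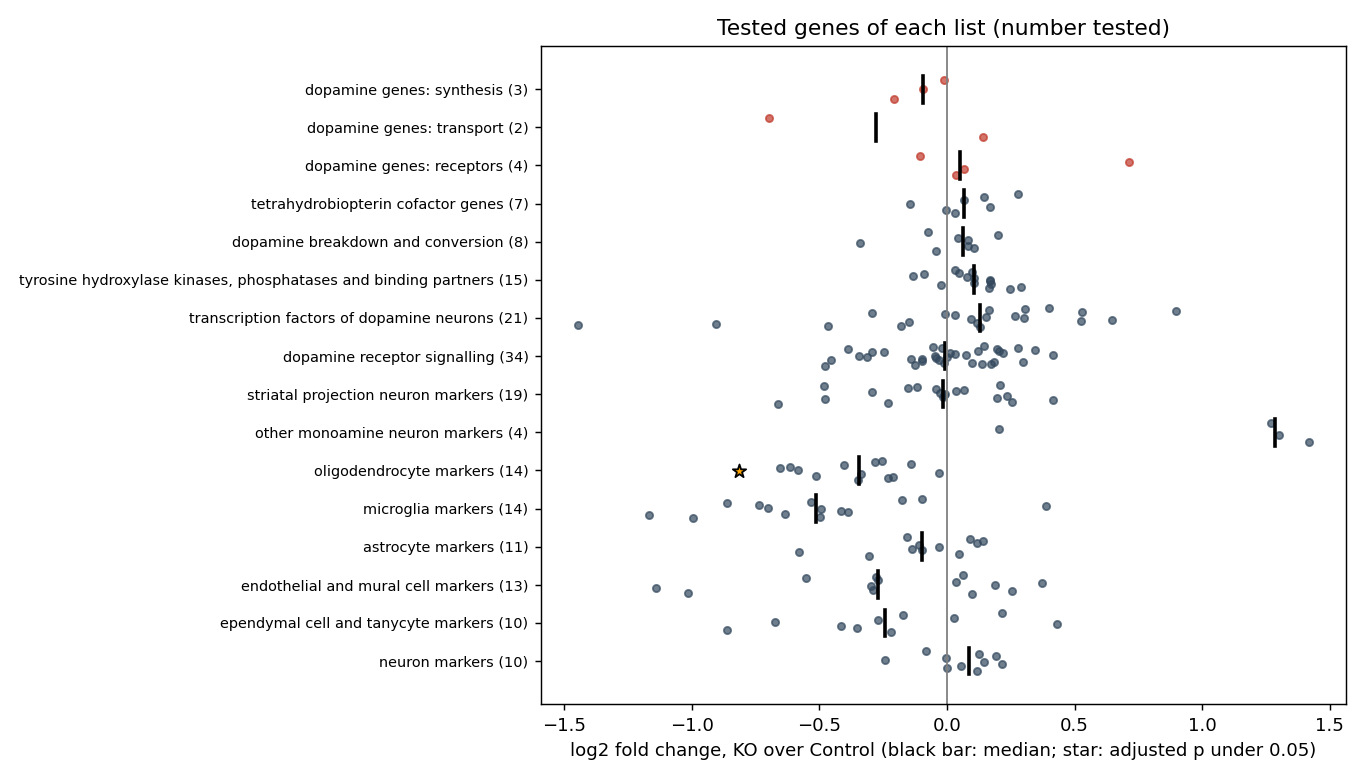
Log2 fold change of KO over Control of every tested gene of each list (points, dopamine genes in red), with the list's median (black bar); the star is the 1 gene that passed adjustment over all genes, Cldn11 at -0.81. The dopamine genes and the wider pathway lie on both sides of 0, and the 14 oligodendrocyte markers all lie below it.

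Markers of other cells that such a dissection could hold were summed in each library. Striatal projection neuron markers, a list that includes Drd1 and Drd2, amounted to 803 to 938 CPM over KO libraries and 815 to 875 CPM over Control libraries, with 7 of 19 above 0 and a median log2 fold change of -0.01. Syndig1l (-0.48, edgeR adjusted p = 0.199, called by DESeq2) and Rgs9 (0.42, edgeR adjusted p = 0.373) had the smallest p. Markers of other monoamine neurons amounted to 8.01 to 23.4 CPM over KO libraries and 9.11 to 20.9 CPM over Control libraries, most of it from the histamine enzyme gene Hdc. The noradrenaline transporter Slc6a2 had 0 counts in all 8 libraries, Dbh, which turns dopamine into noradrenaline, had 0 to 21 counts, and the serotonin transporter Slc6a4 0 to 7. The 4 tested genes of that list were above 0, with a median log2 fold change of 1.29, and 0 passed; Slc18a1 was at 1.24 ± 0.719 CPM in KO and 0.507 ± 0.383 CPM in Control (edgeR adjusted p = 0.514), and Tph2 at 0.563 ± 0.315 and 0.209 ± 0.156 CPM (edgeR adjusted p = 0.540).

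Oligodendrocyte markers summed to 1785 to 3271 CPM over KO libraries and 2796 to 3581 CPM over Control libraries, with 14 of 14 fold changes below 0, a median of -0.34, and 1 that fell, Cldn11 (-0.81, edgeR adjusted p = 0.0375), a tight junction gene of myelin. Mag was at -0.51 (edgeR adjusted p = 0.158), 8 of the 14 had an unadjusted edgeR p under 0.05, and DESeq2 called 4, all lower. The part of this difference in the fold changes of the dopamine genes was not tested by itself. The covariate given below pools these markers with microglia and vascular markers, whose lists also held more fold changes below 0 than above. Microglia markers summed to 34.1 to 58.0 CPM over KO libraries and 31.7 to 91.9 CPM over Control libraries, with 13 of 14 below 0 and a median of -0.51, and 0 passed, with Itgam (-0.996) and Fcer1g (-0.86) of smallest p. Their sum was 91.9 CPM in Control replicate 4 and 90.0 CPM in Control replicate 1, above all other libraries. Astrocyte markers summed to 1312 to 1793 CPM over KO libraries and 1375 to 1797 CPM over Control libraries (median -0.10, 0 of 11 called, Aldh1l1 at -0.58 and Gfap at -0.31). Endothelial and mural markers summed to 12.9 to 44.4 CPM over KO libraries and 15.8 to 50.7 CPM over Control libraries (median -0.27, 0 of 13 called, Esam at -1.14 and Acta2 at -0.55). Ependymal and tanycyte markers summed to 422 to 741 CPM over KO libraries and 414 to 526 CPM over Control libraries (median -0.24, 0 of 10 called, Col23a1 at -0.68 and Tmem212 at -0.86). Most of the ependymal and tanycyte sum came from Nnat, at 498 ± 135 CPM in KO and 430 ± 57.1 CPM in Control. Nnat had a log2 fold change of 0.21, while 7 of the 10 markers were below 0. Neuron markers summed to 13041 to 17164 CPM over KO libraries and 12703 to 14899 CPM over Control libraries (median 0.09, 0 of 10 called, Slc32a1 at -0.24 and Tubb3 at 0.22). Most of the neuron sum came from Snap25, at 11528 ± 1949 CPM in KO and 10610 ± 991 CPM in Control. Of the 8 summed levels none had an exact permutation p under 0.143 (adjusted 0.800 or more). With 4 against 4 libraries this p cannot go below 0.0286, so a single list could not have passed the adjustment. The microglia, astrocyte, endothelial and mural, ependymal and tanycyte, and neuron marker lists had 0 to 2 genes with an unadjusted edgeR p under 0.05 each, and DESeq2 called 0 in them. With the mean of the oligodendrocyte, microglia and vascular markers as a covariate, the log2 fold change of Slc6a3 was -0.28 (edgeR adjusted p = 0.827), that of Drd3 1.04 (edgeR adjusted p = 0.684) and that of Drd1 0.29 (edgeR adjusted p = 0.757).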

How the data were processed

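Each library came as 1 deposited table of raw read counts by gene. The submitters' processing notes name TopHat2 2.0.9, HTSeq, DESeq2 and the build mm10; the sources used here do not give the HTSeq version, the annotation or the strand setting. Per the labels, cDNA was amplified from 10 ng of RNA; no molecular identifiers are mentioned, and counting limits cover counting error only. Removed rows were 92 spike-in rows and 5 counter rows (alignments that were not unique were 69.2% to 81.9% of all records in KO and 63.3% to 74.1% in Control). No library repeated another (chi-square per degree of freedom of 25.9 or more over 28 pairs). The labels do not say that libraries come from separate mice, so p-values measure the spread between libraries, which may be technical.

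Counts were fitted with edgeR 4.0.16 (R 4.3.3; filterByExpr with minimum count 10 and minimum total 15, TMM scaling, robust quasi-likelihood test of KO against Control, no covariate, threshold 0.05 after Benjamini-Hochberg adjustment). SE is that of the difference of group means of log2 CPM with a prior count of 2. The 95% intervals are limma 3.58.1 moderated intervals on those values. Log2 fold changes are those of the edgeR fit, so the intervals need not be centred on them. Single values were compared by exact two-sided permutation. Exon lengths and gene positions are from GENCODE M21 (GRCm38), promoter windows from RefSeq (GRCm38.p6; 10 of 10 genes matched). Run on counts simulated for KO against Control over 15438 genes, the test called 16 of 50 genes changed 1.5-fold, 32 of 50 changed 2-fold, 41 of 50 changed 3-fold and 43 of 50 changed 4-fold, with 9 calls among 15238 unchanged genes.

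The 10 genes and the lists were chosen with earlier results of these data known. Besides the 10 genes and Cic, the text names from each list the genes past the threshold and otherwise the 2 of smallest p (for oligodendrocyte markers both), and for likeness the 3 genes of highest Pearson's r; other names were chosen after their values were seen. 1 item is not reported here. Alternatives were DESeq2 1.42.0, other scalings and filters, a replicate block, a covariate of glial and vascular markers, removal of the Rn45s row and leaving out each library.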

Additional observations from a re-analysis of the deposited data

Results flagged for a closer look

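In 44 groups of 4 libraries, the gap between the highest or lowest library and its neighbour was set against the range of the group, and 4 groups had a library that stood apart by Dixon's criterion, which chance alone meets in about 1 in 20 groups. Th stood apart in Control replicate 4 at 40.1 CPM, against 22.4 to 25.1 CPM in the other Control libraries. In the same library the ratio of Ddc to Th counts was low, at 0.539, and the summed neuron markers were high, at 14899 CPM. Most of that sum was Snap25, at 12083 CPM there, against 9942 to 10267 CPM in the other Control libraries. The other neuron markers did not move together, since Syt1 at 561 CPM was highest of all libraries there, while Slc17a6 at 286 CPM and Stmn2 at 640 CPM were lowest. Drd4 stood apart in KO replicate 3 at 1.24 CPM, which is 50 counts, against 0 to 7 counts in the other KO libraries. Slc6a3 in Control replicate 4, at 37.0 CPM, did not meet the criterion because the other 3 Control libraries were themselves spread from 9.08 to 16.7 CPM.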

How the results depend on the processing

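In every alternative tried 0 of the dopamine genes tested were called, and over 152 gene-by-alternative values the edgeR and DESeq2 adjusted p ran from 0.344 to 0.9998. Of these values 139 kept their direction, among them all of Slc18a2, Slc6a3 and Drd3, and 13 turned it, 11 of them on leaving out 1 library. Leaving out each library in turn gave log2 fold changes of -0.32 to 0.018 for Th, -0.25 to 0.0062 for Ddc, -0.20 to 0.18 for Gch1, 0.053 (without KO replicate 3) to 0.20 for Slc18a2, -0.93 to -0.14 for Slc6a3, -0.19 to 0.23 for Drd1, -0.059 to 0.14 for Drd2, 0.38 to 1.01 for Drd3 and -0.28 to 0.14 for Drd5, and KO minus Control differences of -0.0331 to 0.0364 for the ratio of Drd1 to Drd2 and -0.0859 to 0.0617 for that of Ddc to Th. With the replicate number as a block Gch1 was at 0.016, and with the glial and vascular covariate Drd5 was at 0.055; the cause was not tested. Over all genes the count of 40 became 26 with total counts only, 200 with DESeq2, 65 with the replicate block and 24 with the covariate, and 14 to 53 on leaving out 1 library (26 without KO replicate 2, 19, 17, 26 and 14 without Control replicates 1 to 4). Replicate numbers did not pair the libraries: same-numbered deviations correlated at -0.05, -0.05, -0.00 and 0.10, and only KO replicate 4 correlated best with its own number; the block moved the call of 0 dopamine genes. Depth limits Drd3 and Drd4, which had 0 to 55 counts per library, and Drd3 dropped out under the stricter filter of 1 CPM in 4 libraries, so it has no value there; DESeq2 gave Drd3 no adjusted p.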
